A study of Mus musculus with 34 samples.

Results

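JunD-only loci at rest are the regions where JunD had a ChIP-seq peak in vehicle-treated macrophages of C57Bl/6EiJ mice and where neither ATF3 nor Jun had one. They were selected on measured values: the peaks of the ATF3, Jun and JunD lists from the vehicle (Veh) condition were merged wherever they overlapped by at least 1 bp, and loci whose peaks came from the JunD list only were kept. This gave 3257 of 29552 resting loci. The others were 10558 loci with all 3 monomers, 5931 with ATF3 only, 4829 with ATF3 and JunD, 2182 with Jun only, 986 with Jun and JunD, and 1809 with ATF3 and Jun. C57Bl/6EiJ is the strain as the labels spell it, while the authors name C57Bl/6J for their animals. Thioglycollate elicited macrophages (TGEMs) were used throughout, cultured and given either PBS (Veh) or KLA, a TLR4 agonist, for 1 h. The authors state that their C57Bl/6J and Balb/cJ mice were male, and do not name the sex of the PPARgKO mice. Besides ATF3, Jun and JunD in C57Bl/6EiJ Veh, the lists covered Fos, FosL2 (Fra2 in the labels), JunB, PU.1 and CEBPα in C57Bl/6EiJ Veh, PPARγ in C57Bl/6EiJ Veh, all of these except PPARγ in C57Bl/6EiJ KLA, ATF3, Jun, JunD, Fos and JunB in Balb/cJ with Veh and with KLA, and ATF3, Jun and JunD in PPARgKO TGEMs with Veh. The titles of the PPARgKO samples read C57Bl6-PPARgKO, which gives their background as C57Bl6. The labels name no promoter or Cre for the PPARgKO genotype, and peak lists of AP-1 monomers cannot show the deletion. Replicate experiments were combined in 1 list per condition, so no value below has a replicate error. The intervals are 95% intervals for counting over loci only (Wilson for a share, Newcombe for a difference between 2 shares).

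AP-1 proteins bind DNA as dimers through a basic leucine zipper. Jun family members such as Jun, JunB and JunD can pair with each other, with Fos family members or with ATF proteins, and most dimers recognise the TRE, TGACTCA, or the related CRE, TGACGTCA. JunD is the Jun family member whose expression is usually the most constant, while Fos and JunB are classical immediate early genes that signals such as TLR4 ligation induce within minutes. PU.1, an ETS factor, and the CEBP proteins set up much of the enhancer landscape of macrophages, and PPARγ is a nuclear receptor of lipid metabolism.

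The sequences of 9 JunD-only loci are shown because they carry the different features described below: the highest JunD counts (Trim25, Maf), JunD alone again in Balb/cJ and PPARgKO cells (Axl, Wnk2), peaks of all 6 monomers after KLA (Ube2n, Cxcl1), no peak in any other list (Azin1) and promoters (Rpl22, Psmd12). Each name is that of the nearest gene or, for the 2 promoters, of the gene that starts there, and the promoter examples were chosen after their values were seen. The runs are the plus strand of the central 200 bp of each locus on GRCm38 (mm10), and 129 bp for Psmd12, where annotated UTR bases were left out. Capitals mark exact matches, on either strand, to the 14 consensus motifs searched. The positions are chr11:89024202-89024401 for Trim25, chr8:115618471-115618670 for Maf, chr7:25776857-25777056 for Axl, chr13:49100470-49100669 for Wnk2, chr10:95508872-95509071 for Ube2n, chr5:90876107-90876306 for Cxcl1, chr15:38473717-38473916 for Azin1, chr4:152325604-152325803 for Rpl22 and chr11:107479355-107479483 for Psmd12.
Trim25: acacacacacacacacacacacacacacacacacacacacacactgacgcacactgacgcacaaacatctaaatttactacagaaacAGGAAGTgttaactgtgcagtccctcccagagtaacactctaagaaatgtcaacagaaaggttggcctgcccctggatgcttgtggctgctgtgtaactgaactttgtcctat
Maf: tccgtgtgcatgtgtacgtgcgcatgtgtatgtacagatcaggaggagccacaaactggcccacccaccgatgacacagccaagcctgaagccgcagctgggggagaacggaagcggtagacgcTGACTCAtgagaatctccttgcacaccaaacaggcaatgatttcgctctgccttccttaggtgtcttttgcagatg
Axl: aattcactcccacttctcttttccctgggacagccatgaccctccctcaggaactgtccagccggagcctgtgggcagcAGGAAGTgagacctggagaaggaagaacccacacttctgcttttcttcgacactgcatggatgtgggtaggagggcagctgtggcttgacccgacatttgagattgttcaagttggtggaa
Wnk2: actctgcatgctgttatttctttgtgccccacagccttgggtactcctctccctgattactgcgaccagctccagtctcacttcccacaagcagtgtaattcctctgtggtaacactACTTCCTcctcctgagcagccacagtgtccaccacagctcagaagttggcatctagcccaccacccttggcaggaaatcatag
Ube2n: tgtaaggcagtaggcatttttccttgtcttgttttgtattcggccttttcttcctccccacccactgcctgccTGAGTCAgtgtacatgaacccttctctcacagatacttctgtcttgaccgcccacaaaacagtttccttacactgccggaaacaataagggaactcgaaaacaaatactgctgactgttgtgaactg
Cxcl1: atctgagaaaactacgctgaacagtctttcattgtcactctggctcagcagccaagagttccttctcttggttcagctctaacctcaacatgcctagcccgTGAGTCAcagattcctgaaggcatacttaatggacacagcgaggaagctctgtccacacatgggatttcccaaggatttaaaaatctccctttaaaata
Azin1: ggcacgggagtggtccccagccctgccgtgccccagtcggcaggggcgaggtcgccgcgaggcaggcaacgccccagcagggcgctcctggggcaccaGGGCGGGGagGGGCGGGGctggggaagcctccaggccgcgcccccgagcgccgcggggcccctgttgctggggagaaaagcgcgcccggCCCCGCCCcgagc
Rpl22: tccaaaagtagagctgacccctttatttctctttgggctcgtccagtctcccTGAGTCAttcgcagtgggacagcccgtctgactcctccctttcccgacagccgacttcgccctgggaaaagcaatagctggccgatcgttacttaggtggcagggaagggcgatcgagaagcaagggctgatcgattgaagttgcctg
Psmd12: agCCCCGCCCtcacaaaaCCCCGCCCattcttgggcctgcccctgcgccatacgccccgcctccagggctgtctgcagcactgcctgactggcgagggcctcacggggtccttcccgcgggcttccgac
The capitals are a TRE at Maf, Ube2n, Cxcl1 and Rpl22, a PU.1 motif (ACTTCCT) at Trim25, Axl and Wnk2, and GC boxes (CCCCGCCC) at Azin1 and Psmd12. The Azin1 window is 80.5% G and C, against 54.5% at Maf.

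JunD peaks at JunD-only loci ranked low in their own list. Each of the 3257 loci held 1 JunD peak, with a count (tags) of at least 27, a median of 35.0 (quartiles 32.0 and 41.0) and a highest value of 141. The count is the whole number of tags deposited with a peak. The median over the whole JunD Veh list was 50.0, and 280 members (8.60%) reached it, compared with 1722 of 4829 loci with ATF3 and JunD (35.7%) and 7803 of 10558 loci with all 3 (73.9%). These counts describe the selection and were not tested. Near the limit of the rule, 83 members (2.55%) had an ATF3 or Jun peak within 100 bp that did not overlap, with a median JunD count of 36.0, and 8 of the 16373 loci where JunD was joined by ATF3 or Jun were joined by an overlap of 1 to 20 bp, with a median JunD count of 49.5. An ATF3 or Jun peak lay further than 1000 bp away at 2633 members (80.8%) and further than 10000 bp at 1317 (40.4%). The absence of a peak says only that none passed the IDR limit of the authors in that list.

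JunD was found again at fewer than 50% of these loci in each other setting, although with the strongest 50% of each list it was found in Balb/cJ Veh at 963 of 1406 (68.5%). Of the 3257 members, 1565 (48.1%, interval 46.3 to 49.8) had a JunD peak in Balb/cJ Veh, against 64.9% of all resting loci, members included. In PPARgKO Veh 1166 members (35.8%, 34.2 to 37.5) had one, against 43.3% of all resting loci, and in C57Bl/6EiJ KLA 1434 (44.0%, 42.3 to 45.7) had one, against 67.2%. With KLA in Balb/cJ the count was 1526 (46.9%, 45.1 to 48.6), against 63.5%. A JunD peak appeared in all 4 of these lists at 261 members (8.01%), against 25.6% of all resting loci, and in none at 572 (17.6%), against 12.1%. The members thus held JunD less often than resting loci at large in every one of the 4 lists, while they exceeded loci with Jun only in each and exceeded loci with ATF3 only in 3. The share minus that of ATF3-only loci was 7.28 percentage points in Balb/cJ Veh (5.16 to 9.40), 13.0 in PPARgKO Veh (11.0 to 15.0), 3.54 in Balb/cJ KLA (1.41 to 5.67) and 0.427 in C57Bl/6EiJ KLA (-1.69 to 2.55).

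Where a JunD peak was shared, its rank was more alike among the Veh lists than between Veh and KLA. The Spearman correlation over members between the JunD count in C57Bl/6EiJ Veh and that in the other list was 0.51 for Balb/cJ Veh (n = 1565), 0.52 for PPARgKO Veh (n = 1166), 0.19 for Balb/cJ KLA (n = 1526) and 0.11 for C57Bl/6EiJ KLA (n = 1434). These are descriptions over loci, which share the C57Bl/6EiJ JunD list and differ in base composition. The member peaks stood at a median percentile, the share of peaks in the list with the same or a smaller count, of 47.5 in the PPARgKO JunD list, 44.2 in Balb/cJ Veh, 45.9 in Balb/cJ KLA and 33.7 in C57Bl/6EiJ KLA.

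ATF3 and Jun were called at part of the members in other settings. In Balb/cJ Veh, 587 members (18%, 16.7 to 19.4) had an ATF3 peak, against 53.8% of all resting loci, and 297 (9.12%, 8.18 to 10.2) had a Jun peak, against 33.8%. In PPARgKO Veh, 1373 (42.2%, 40.5 to 43.9) had an ATF3 peak, against 70.1%, and 79 (2.43%, 1.95 to 3.01) had a Jun peak, against 13.8%. The ATF3 list of PPARgKO cells held 28318 peaks and that of C57Bl/6EiJ Veh 23160, while the 2 Jun lists held 4290 and 15548, so the length of the lists moved with these shares and its part in them was not tested. ATF3 peaks at the members were weak where they occurred, with a median percentile of 25.2 in Balb/cJ Veh and 33.2 in PPARgKO Veh. Over the 8 other ATF3 and Jun lists, 843 members (25.9%, 24.4 to 27.4) had no peak of either monomer in any, against 8.95% of all resting loci, 3.21% of ATF3-and-JunD loci, 10.9% of ATF3-only loci and 35.7% of Jun-only loci. Another AP-1 monomer had no peak in any list of the series at 605 members (18.6%). Outside the C57Bl/6EiJ Veh lists of ATF3, Jun and JunD the same was true of 6.73% of all resting loci, and of 29.1% of Jun-only loci.

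Among the patterns of ATF3, Jun and JunD peaks, JunD alone was the commonest at the members in Balb/cJ Veh, but not in PPARgKO Veh. The JunD, ATF3 and Jun lists held 28652, 19506 and 10957 peaks in Balb/cJ Veh and 19355, 28318 and 4290 in PPARgKO Veh. The part of list length in the patterns was not tested. JunD without ATF3 and Jun was seen at 1020 members in Balb/cJ Veh (31.3%, 29.7 to 32.9), against 15.6% of all resting loci, while 287 members (8.81%) had ATF3 and JunD, 139 (4.27%) all 3 and 1509 (46.3%) none. In PPARgKO Veh the same was true of 543 (16.7%, 15.4 to 18), against 6.28% of all resting loci, with ATF3 alone at 735 (22.6%), ATF3 and JunD at 585 (18%) and no peak at 1315 (40.4%). The share with JunD alone exceeded that of ATF3-and-JunD loci by 12.9 percentage points in Balb/cJ (11.0 to 14.8) and by 10.4 in PPARgKO cells (8.94 to 11.8). It exceeded that of Jun-only loci by 11.5 points (9.14 to 13.8) and 8.70 points (6.96 to 10.4). Jun-and-JunD loci came nearest, with JunD alone at 29.3% in Balb/cJ Veh (289 of 986) and 11.5% in PPARgKO Veh (113), or 2.01 points below the members (interval of the difference -1.31 to 5.20) and 5.21 points below (2.74 to 7.48). Among loci with a JunD peak there, 65.2% of the members (1020 of 1565) had it alone in Balb/cJ Veh, compared with 26.2% of ATF3-and-JunD loci (889 of 3397), 36.0% of ATF3-only loci (871 of 2418), 46.9% of Jun-and-JunD loci (289 of 616) and 55.4% of Jun-only loci (433 of 781). In PPARgKO Veh it was 46.6% of the members (543 of 1166), 13.6% of ATF3-and-JunD, 25.2% of ATF3-only, 26.6% of Jun-and-JunD and 49.2% of Jun-only loci, and there the members did not separate from Jun-only loci (-2.58 points, -8.50 to 3.33). JunD stood alone again in both settings at 193 members (5.93%, 5.17 to 6.79), against 1.75% of all resting loci and 4.06% of Jun-and-JunD loci. With the strongest 50% of each list, which gave 1406 JunD-only loci, the share alone again in Balb/cJ rose to 52.8%.

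**Figure D1:**
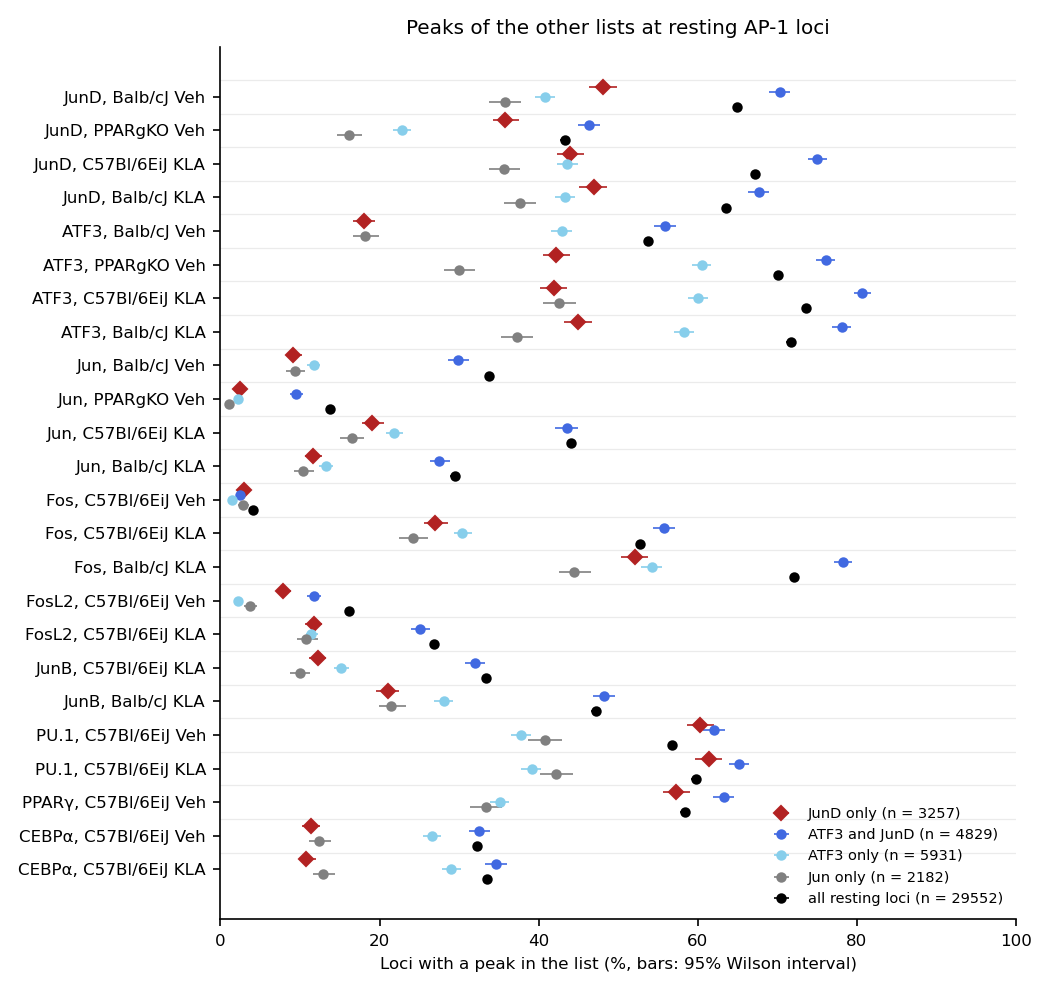
Share of loci (x axis, percent) with a peak in each of 24 other lists (y axis), for JunD-only loci (red diamonds), ATF3-and-JunD, ATF3-only and Jun-only loci and all resting loci (circles), with 95% Wilson intervals for counting over loci. JunD-only loci lay below all resting loci in every list shown except the 2 PU.1 lists, at 60.3% against 56.8% in Veh and 61.4% against 59.8% in KLA.

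**Figure D2:**
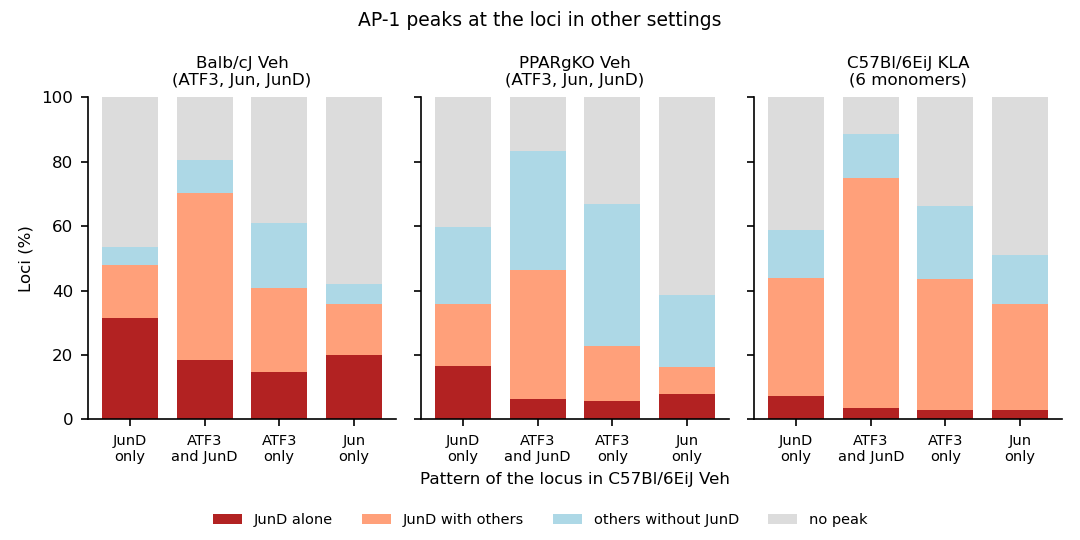
Stacked shares of loci (y axis, percent) by the AP-1 peaks they held in Balb/cJ Veh, PPARgKO Veh and C57Bl/6EiJ KLA, for the 4 patterns of C57Bl/6EiJ Veh on the x axis. The segment for JunD alone was highest for JunD-only loci in each panel, at 31.3%, 16.7% and 7.15%.

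After KLA, most JunD-only loci either had no AP-1 peak or had peaks of other monomers. Of the 3257, 1341 (41.2%, 39.5 to 42.9) had no AP-1 peak in C57Bl/6EiJ KLA, 233 (7.15%, 6.32 to 8.09) had JunD alone, 1201 (36.9%, 35.2 to 38.5) had JunD with others and 482 (14.8%, 13.6 to 16.1) had other monomers without JunD. Over all resting loci these shares were 19.4%, 2.85%, 64.4% and 13.3%. By comparison 550 of 4829 ATF3-and-JunD loci (11.4%) and 1997 of 5931 ATF3-only loci (33.7%) had no AP-1 peak, as had 202 of 986 Jun-and-JunD loci (20.5%) and 1066 of 2182 Jun-only loci (48.9%). In Balb/cJ KLA, with 5 monomers in place of 6, 1011 members (31.0%) had none and 214 (6.57%) had JunD alone. The number of monomers with a peak in C57Bl/6EiJ KLA was 1 at 598 members, 2 at 449, 3 at 316, 4 at 250, 5 at 183 and 6 at 120 (3.68%, against 17.0% of all resting loci).

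ATF3 was the other monomer found most often in C57Bl/6EiJ KLA, and Fos in Balb/cJ KLA. ATF3 had a C57Bl/6EiJ KLA peak at 1365 members (41.9%, 40.2 to 43.6), against 73.6% of all resting loci. Fos had one at 881 (27.0%, 25.6 to 28.6), against 52.8%, Jun at 623 (19.1%, 17.8 to 20.5), against 44.1%, JunB at 396 (12.2%, 11.1 to 13.3), against 33.4%, and FosL2 at 380 (11.7%, 10.6 to 12.8), against 26.8%. The KLA lists of Balb/cJ gave 1464 members with ATF3 (44.9%, against 71.7%), 1696 with Fos (52.1%, against 72.1%), 684 with JunB (21%, against 47.2%) and 378 with Jun (11.6%, against 29.5%). Each monomer was less frequent at the members than at ATF3-and-JunD loci, with differences in C57Bl/6EiJ KLA from -13.4 points for FosL2 (-15.0 to -11.7) to -38.8 for ATF3 (-40.8 to -36.8). FosL2 did not separate the members from ATF3-only loci (0.219 points, -1.13 to 1.61) or Jun-only loci (0.851 points, -0.881 to 2.54). The Fos lists of the 2 strains held 24365 and 40459 peaks.

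Of Fos, FosL2 and JunB, FosL2 was found most often in C57Bl/6EiJ Veh, where the rule itself left out ATF3 and Jun. Its list there held 5329 peaks, against 1804 for Fos and 463 for JunB. A FosL2 Veh peak overlapped 256 members (7.86%, 6.98 to 8.83), against 16.2% of all resting loci, which was 5.70 points more than at ATF3-only loci (4.74 to 6.73) and 4.19 more than at Jun-only loci (2.96 to 5.40). It was less frequent than at ATF3-and-JunD loci (11.7%, -3.88 points, -5.16 to -2.57) and Jun-and-JunD loci (15.2%, -7.35 points, -9.89 to -5.03). Fos Veh peaks were found at 97 (2.98%, against 4.12%) and JunB Veh peaks at 5 (0.154%, against 1.15%). The JunB Veh list of Balb/cJ held 9 peaks, none at a member, against 0.0271% of all resting loci, and its Fos Veh list held no peak.

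The size of the JunD peak moved with these shares, so members were also compared with ATF3-and-JunD loci in ranges of the JunD Veh count. At counts of 38 or less, 782 of 2130 members (36.7%) had a JunD KLA peak, against 948 of 1531 ATF3-and-JunD loci (61.9%), and 903 (42.4%) had JunD in Balb/cJ Veh, against 855 (55.8%). JunD in PPARgKO cells was found at 681 (32.0%) and 509 (33.2%), a smaller gap. Among counts above 72, where only 29 members remained, the shares for JunD KLA were 79.3% and 95.6%. ATF3 in Balb/cJ Veh stayed lower at the members in every range, from 13.7% against 45.0% to 55.2% against 82.9%. Both subsets thus held JunD elsewhere more often where its resting peak was larger, and the members remained below ATF3-and-JunD loci for JunD in KLA and in Balb/cJ in all 4 ranges.

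**Figure D3:**
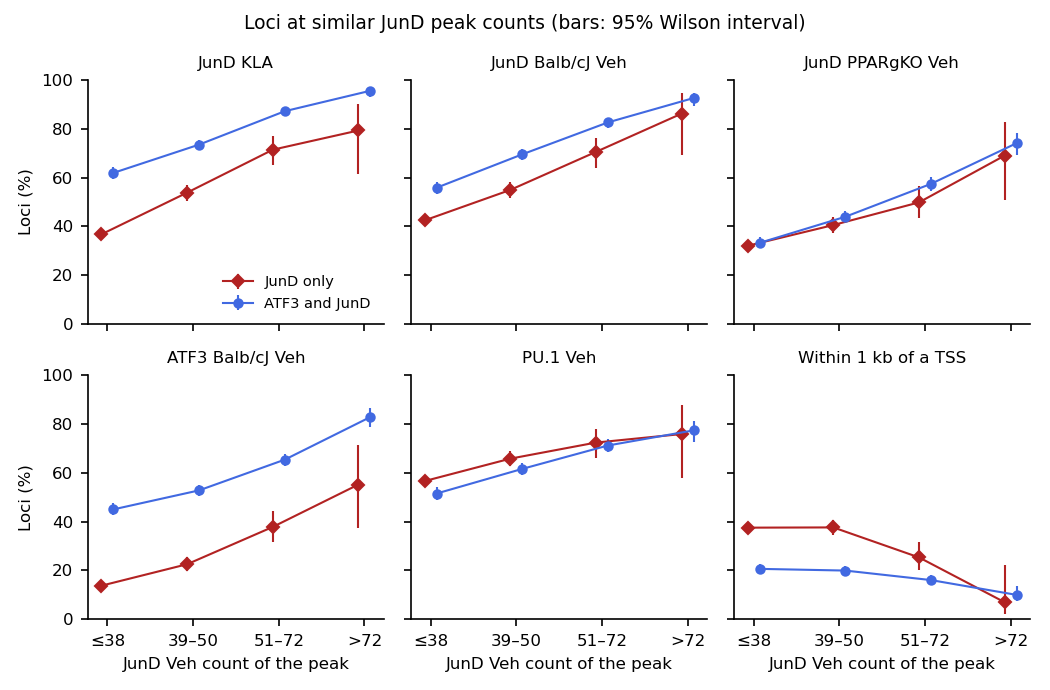
Share of loci (y axis, percent, 95% Wilson intervals) by the JunD Veh count of the peak (x axis, 4 ranges) for JunD-only (red diamonds) and ATF3-and-JunD loci (blue circles), in 6 panels by feature. For JunD in PPARgKO Veh the shares were close in the lowest range, at 32.0% and 33.2%, while those within 1 kb of a TSS were 37.5% and 20.6%.

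JunD-only loci lay at promoters more often than the other patterns compared, Jun-and-JunD loci coming nearest. The centre of 1186 members (36.4%, 34.8 to 38.1) lay within 1 kb of the TSS of a protein-coding gene, against 18% of all resting loci. The share was 18.4% for ATF3-and-JunD, 16.0% for ATF3-only, 20.8% for Jun-only, 28.6% for Jun-and-JunD (282 of 986, 25.9 to 31.5) and 12.1% for loci with all 3. The difference was 18 points from ATF3-and-JunD loci (16.1 to 20.0), 20.4 from ATF3-only loci (18.5 to 22.3) 15.6 from Jun-only loci (13.2 to 18) and 7.81 from Jun-and-JunD loci (4.48 to 11.0). The median distance to a TSS was 5.30 kb, compared with 15.2 kb over all resting loci. Centres fell in introns at 1308 members (40.2%), between genes at 1523 (46.8%), in a UTR at 374 (11.5%) and in a coding exon at 52 (1.60%). At promoters, 814 of the 1186 (68.6%) were centred upstream of the TSS, with a median of 37 bp upstream.

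The promoter share was lower at the members with larger JunD peaks. It was 37.5% at counts of 38 or less, 37.6% up to 50, 25.3% up to 72 and 6.90% (2 of 29) above, and 22.4% when only the strongest 50% of each list was used. ATF3-and-JunD loci gave 20.6%, 19.9%, 16.0% and 9.92% in the same ranges. The members were spread over the chromosomes, from 9.61% of the resting loci on chromosome 16 to 12.6% on chromosome 12 among the autosomes.

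The sequence of the members differed by position. Within 1 kb of a TSS the central 200 bp had a median GC content of 64.0% and 16.0 CpGs, compared with 61.0% and 14.0 at all resting promoter loci, and beyond 1 kb the medians were 50.0% and 3.00, compared with 47.5% and 2.00. Motifs were searched in the 3255 members on placed chromosomes and in 29545 resting loci. A match is a run of letters and not a shown binding site.

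TREs were scarce. A TRE was found in 468 members (14.4%, 13.2 to 15.6), against 26.0% of all resting loci and 38.1% of loci with all 3. Beyond 1 kb from a TSS it was found in 414 of 2069 (20.0%), against 26.0% of ATF3-and-JunD loci and 18.9% of ATF3-only loci, and within 1 kb in 54 of 1186 (4.55%), against 12.5% and 6.62%. The TRE centre lay within 25 bp of the peak centre at 261 of the 468 (55.8%, 51.2 to 60.2), a share near that of ATF3-only loci (57.9%). The CRE was rarer, with 40 members (1.23%, against 1.84%). With the strongest 50% of each list, the TRE share was 23.9%.

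Promoter motifs were commoner, and CEBP motifs rarer, than over all resting loci. GC boxes, which Sp and Klf factors bind, were found in 358 members (11.0%, against 5.35% of all resting loci and 9.84% of Jun-and-JunD loci), ETS motifs (CCGGAAGT) in 139 (4.27%, against 1.81%), the CTCF core (AGGGGGCG) in 146 (4.49%, against 1.83%), YY1 motifs (AAGATGGCG) in 35 (1.08%, against 0.382%), NRF1 motifs (GCGCATGCG) in 30 (0.922%, against 0.538%) and E-boxes (TCACGTG) in 139 (4.27%, against 3.50%). PU.1 motifs (ACTTCCT) were found in 724 (22.2%, against 21.7%) and CEBP motifs (TTGCNNAA) in 294 (9.03%, against 17.7%). Runx (TGTGGTT, 245 members, 7.53% against 7.37%), NF-Y (CCAATCA, 99, 3.04% against 2.82%), IRF (GAAANNGAA, 221, 6.79% against 7.83%) and NF-κB motifs (GGGANTTTC, 30, 0.922% against 0.860%) stayed close to all resting loci. The GC box, read on the other strand, and the CTCF core share the letters GGGCG, so 1 stretch can hold both. In the central 100 bp, GC boxes were found in 5.87% of the members and E-boxes in 2.55%. The shares of all resting loci above are for 200 bp and cannot be set against these 2 values.

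Promoter and distal loci were also taken apart, since members lay at promoters more often. Within 1 kb of a TSS, GC boxes were found at 25.1% of the members (22.7 to 27.7) and 22.0% of all resting promoter loci (20.9 to 23.1), E-boxes at 6.58% and 7.21%, and ETS motifs at 9.44% (7.91 to 11.2) and 7.02% (6.36 to 7.74). Beyond 1 kb, PU.1 motifs were found at 28.5% of the members (26.6 to 30.5) and 23.8% of all resting loci (23.3 to 24.3), Runx motifs at 10.1% and 8.17%, and CEBP motifs at 11.3% and 19.5%. CEBP motifs were the rarer in both positions, at 5.06% against 9.48% of promoter loci.

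**Figure D4:**
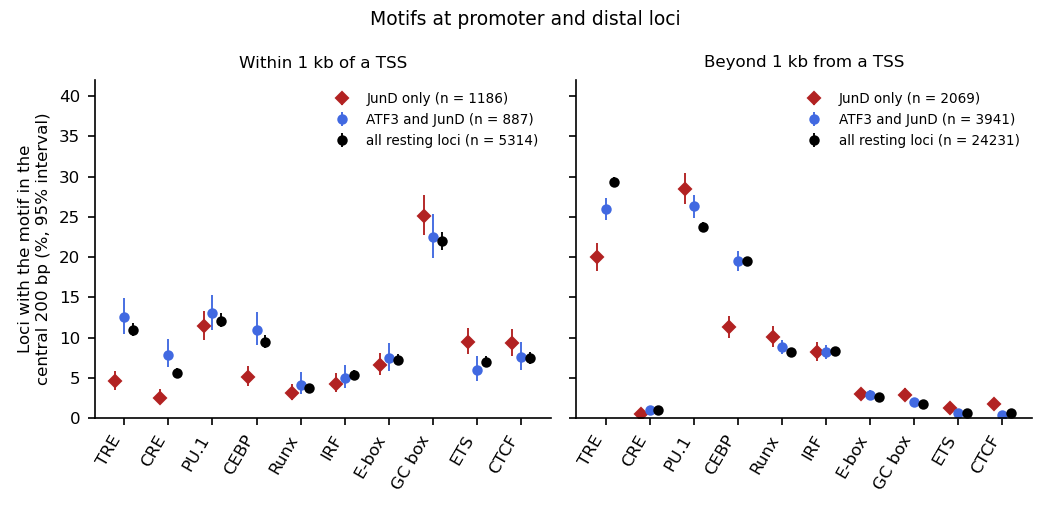
Share of loci with each of 10 motifs in the central 200 bp (y axis, percent, 95% Wilson intervals) for JunD-only loci (red diamonds), ATF3-and-JunD loci (blue circles) and all resting loci (black circles), within and beyond 1 kb from a TSS. TREs and CEBP motifs were rarer at JunD-only loci in both panels, and GC boxes reached 25.1% at promoters.

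CEBPα was less frequent at the members than over all resting loci, while PU.1 and PPARγ were near them. In Veh, PU.1 had a peak at 1965 (60.3%, 58.6 to 62.0), against 56.8% of all resting loci, and PPARγ at 1867 (57.3%, 55.6 to 59.0), against 58.4%. CEBPα had one at 370 (11.4%, 10.3 to 12.5), against 32.3%. With KLA the shares were 61.4% for PU.1 (2000 members, against 59.8%) and 10.8% for CEBPα (353 members, against 33.5%). Compared with ATF3-only loci, PU.1 in Veh was more frequent by 22.6 points (20.5 to 24.6) and PPARγ by 22.2 (20.1 to 24.3). Both were near ATF3-and-JunD loci, at -1.75 points for PU.1 (-3.92 to 0.411) and -5.94 for PPARγ (-8.12 to -3.77), and with the strongest 50% of each list both signs turned, at 54.7% against 48.0% and 58.9% against 58.3%. CEBPα was less frequent than at ATF3-only loci by 15.2 points (interval of the signed difference -16.8 to -13.6) and near Jun-only loci (-1.06 points, -2.85 to 0.680).

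PU.1 peaks at the members were strong, with a median count of 325 compared with 259 over the whole list, a median percentile of 62.8, while PPARγ peaks stood at a median percentile of 56.0. PU.1 and PPARγ occurred together at 1202 members (36.9%, against 38.3% of all resting loci), PU.1 without PPARγ at 763 (23.4%, against 18.5%), PPARγ without PU.1 at 665 (20.4%, against 20.1%), and none of PU.1, CEBPα and PPARγ at 558 (17.1%, against 17.9%). Only the share with PU.1 and no PPARγ was higher than over all resting loci by more than 1 point. It did not separate the members from Jun-only loci, at 23.1% (0.374 points, -1.93 to 2.65). Nor did it separate them from Jun-and-JunD loci, at 21.7% (1.72 points, lower limit -1.31). The share was lower at ATF3-only loci (20.6%), ATF3-and-JunD loci (19.8%) and loci with all 3 (13.3%). PPARγ peaks were found at 849 of 1186 promoter members (71.6%), near the 69.5% of all resting promoter loci, and at 1016 of 2069 distal members (49.1%), below the 56.0% of all distal loci. PU.1 went the other way, at 53.5% of promoter and 64.3% of distal members. JunD was found again in PPARgKO Veh at 43.3% of the members with a PPARγ peak and 25.7% of those without, a difference of 17.6 points (14.4 to 20.8), and in Balb/cJ Veh at 50.5% and 44.8%, a difference of 5.64 points (2.17 to 9.08). The 2 differences share the members, and the gap between them was not tested. ATF3 in PPARgKO Veh was found at 46.5% and 36.3%, a difference of 10.2 points (6.75 to 13.5). The same splits by PPARγ peak over all resting loci are not given here. They are therefore not shown to be particular to the members. At JunD Veh counts of 38 or less, PPARγ was found at 52.4% of members and JunD in PPARgKO Veh at 32.0%. Above 50 and up to 72, these shares were 70.5% and 49.8%. The part of peak size in the differences was not tested.

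Members with and without a TRE behaved differently after KLA. Of the 468 with a TRE, 64.1% had a Fos KLA peak, compared with 20.8% of those without, a difference of 43.3 points (38.6 to 47.7). The same split was 72.0% and 36.9% for ATF3 KLA, 67.3% and 40.1% for JunD KLA, 30.6% and 9.07% for JunB KLA, 29.1% and 8.75% for FosL2 KLA and 32.7% and 16.9% for Jun KLA. At rest in Balb/cJ, JunD differed less, at 54.7% and 46.9% (7.77 points, 2.87 to 12.6). PU.1 and PPARγ Veh peaks were the rarer at TRE members, at 33.1% against 64.9% and 34.0% against 61.2%. Position moved with this split, since 11.5% of TRE members and 40.6% of the others lay within 1 kb of a TSS. Among distal members, a TRE was found at 142 of 1330 with a PU.1 peak (10.7%) and 272 of 739 without (36.8%). The part of position in the split was not tested. Shares with and without a TRE over all resting loci, or over the other patterns, are not set beside these. The differences by TRE are therefore not shown to be particular to the members.

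Promoter and distal members also differed after KLA, for Fos and JunD not alike in the 2 strains. The shares of all resting promoter and distal loci are not set beside these. The splits are therefore not shown to be particular to the members. In C57Bl/6EiJ KLA, Fos was found at 15.5% of promoter and 33.7% of distal members, ATF3 at 28.9% and 49.3%, JunB at 4.72% and 16.4%, and JunD at 37.7% and 47.7%. In Balb/cJ KLA the shares were 9.78% and 27.4% for JunB and 40.5% and 47.5% for ATF3. Fos in Balb/cJ KLA was closer, at 49.7% of promoter and 53.4% of distal members (-3.66 points, -7.21 to -0.0920), and JunD was the more frequent at promoters, at 51.7% against 44.1% (7.60 points, 4.04 to 11.1). Fos in Veh was more frequent at promoters, at 6.32% against 1.06% (5.26 points, 3.90 to 6.83). JunD in PPARgKO Veh was found at 40.1% and 33.4% (6.69 points, 3.25 to 10.1).

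Ribosomal, proteasome and lysosomal genes were among those with a JunD-only locus within 1 kb of a TSS. Over all 21911 protein-coding genes, 1286 (5.87%) had one and 5030 (23.0%) had a resting locus of any pattern, so that 25.6% of the latter had a JunD-only locus. Of 91 genes whose symbols start with Rpl or Rps, 21 (23.1%) had one, or 43.8% of the 48 with any resting locus. Rps19bp1, which is not a ribosomal protein gene, is among the 21. The count was 8 of 26 lysosomal genes (30.8%), 8 of 41 proteasome genes (19.5%), 13 of 93 genes of the respiratory chain (14.0%), 9 of 78 of the mitochondrial ribosome (11.5%) and 1 of 25 of the V-ATPase (4.00%). In the same order, these were 34.8%, 32.0%, 31.0%, 29.0% and 8.33% of the genes with any resting locus, against the 25.6% of all genes. No test was made on these lists, whose promoters also held other resting loci more often than the 23.0% of all genes: 52.7% for ribosomal, 61.0% for proteasome and 88.5% for lysosomal genes.

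Among the ribosomal genes Rpl22 had the highest JunD Veh count, 60, with a JunD count of 44 in Balb/cJ Veh, 55 in PPARgKO Veh and 272 in KLA, and with ATF3 in KLA at 58. Rps28, at 50, shares its locus with the complex I gene Ndufa7, and had JunD at 44 in Balb/cJ Veh and 208 in KLA, with none in PPARgKO Veh. Rps20 followed at 47 and Rpl23 at 46, where JunD was again found in Balb/cJ Veh, at 29 and 39. All 4 had a PPARγ Veh peak, at 89, 82, 38 and 51. Counts are not scaled between lists, and the KLA list of JunD has a median of 277.

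Hexa, the α subunit of β-hexosaminidase, led the lysosomal genes with a JunD Veh count of 59. It had JunD at 73 in Balb/cJ Veh and 420 in KLA, ATF3 at 26 and 94, and neither in PPARgKO Veh. The cathepsin gene Ctsl followed at 54, Psap, the saposin precursor, at 42, and Npc2, a cholesterol carrier, at 40. In the proteasome, Psmd12 had 57, with 57 in Balb/cJ Veh and 45 in PPARgKO Veh, and Psmd1, Psma4 and Psma6 had 51, 46 and 45. The respiratory chain held Ndufa7 at 50 and Atp5s and Ndufc2 at 40, and the mitochondrial ribosome Mrpl41 at 50, Mrps28 at 40 and Mrps27 at 39.

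The lists of macrophage genes were short and were not tested. Over all protein-coding genes 5.87% had a JunD-only locus at a TSS, or 25.6% of those with any resting locus there. The latter share was 27.3% for macrophage factors, 15.4% for receptors, 40.0% for NADPH oxidase, 33.3% for iron and 25.0% for AP-1 genes. It was 28.6% for cell cycle genes, 8.33% for cytokines and chemokines and 33.3% for E-box factors. Of 14 macrophage factors, 3 (21.4%) had a JunD-only locus at a TSS: Nr1h3, the oxysterol receptor LXRα, with a JunD Veh count of 50, Klf2 with 46 and Runx1 with 33. JunD was found again at all 3 in PPARgKO Veh, at 29, 34 and 24, and in KLA, at 204, 150 and 219. Of 14 macrophage receptors 2 did (14.3%), the Fc receptor Fcgr3 at 55 and the growth factor receptor Csf1r at 46. Of the 6 NADPH oxidase genes 2 did (33.3%), Ncf1 at 33 and Rac2 at 31, of 9 iron genes 2 (22.2%), Aco1 at 40 and the ferritin light chain Ftl1 at 32, and of 15 AP-1 genes 3 (20.0%), Fosb at 43 (not the distal locus described below), Atf2 at 39 and Atf7 at 34. Of 20 cell cycle genes 2 did (10.0%), Ccnd3 and Mcm7, of 21 cytokines and chemokines 1 (4.76%), Ccl9 at 32, with a JunD count of 410 in KLA, and of 8 E-box factors 1 (12.5%), Max at 35. Max, which encodes an E-box binding protein, held an E-box in the window.

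The nearest genes were many. The members had 2616 different nearest protein-coding genes, of which 2148 were nearest to a single member. Of all 29552 resting loci 3257 were members, and of the 15 nearest to Frmd8, 8 were. The count was 6 of 28 for Maf, 6 of 32 for Bcl2l11, which encodes the pro-apoptotic protein Bim, and 5 of 18 for Bach1, a heme-responsive repressor, genes picked for these counts.

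The 6 strongest JunD-only loci were JunD-only in C57Bl/6EiJ Veh but not elsewhere. A locus between genes, 24.9 kb downstream of the TSS of Trim25, a gene of antiviral signalling (chr11:89024176-89024426), had the highest JunD Veh count, 141, in the 97.1 percentile of its list. It had JunD at 137 in Balb/cJ Veh and 666 in KLA, none in PPARgKO Veh, ATF3 at 68 in Balb/cJ Veh and 79 in PPARgKO Veh, and peaks in 20 other lists in all. Its PPARγ count of 437 stood in the 99.9 percentile and its PU.1 count of 793 in the 95 percentile. The locus 88.5 kb from the TSS of Maf, a basic leucine zipper factor (chr8:115618443-115618697), had JunD at 103 in C57Bl/6EiJ Veh, 97 in PPARgKO Veh, 81 in Balb/cJ Veh and 400 in KLA, with ATF3 at 62 in PPARgKO Veh and 56 in Balb/cJ Veh. No PU.1 Veh or PPARγ peak was there.

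The other 4 differed in where JunD returned. The Atp6v1c1 locus, 17.4 kb upstream of this V-ATPase gene (chr15:38644424-38644643), had JunD at 101 and 100 in C57Bl/6EiJ and PPARgKO Veh and in no other JunD list, with PU.1 at 1460 and CEBPα at 219 in Veh. Gramd1b, whose protein carries cholesterol to the endoplasmic reticulum, had 95, 66 in PPARgKO Veh and 102 in Balb/cJ Veh (chr9:40581917-40582123, between genes). Fosb, an AP-1 gene, had 93, with 87 in Balb/cJ Veh, 6.57 kb upstream of its TSS (chr7:19316491-19316750), and Prkag2, an AMPK subunit, had 91, with 66 and 96, in an intron (chr5:25086242-25086481). An ATF3 peak was called in PPARgKO Veh at all 6, with counts from 62 to 79, and in Balb/cJ Veh at 5, with Gramd1b the exception.

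JunD had a peak, and ATF3 and Jun had none, in all 3 Veh settings at 193 members. The 6 of these with the highest JunD Veh counts are given here. FosL2 had no list in Balb/cJ or PPARgKO cells. At Axl, a receptor of apoptotic cell uptake, an intronic locus (chr7:25776839-25777073) had JunD at 73 in C57Bl/6EiJ Veh, 85 in Balb/cJ Veh and 62 in PPARgKO Veh, and 400 in KLA, with PU.1 at 1366 and PPARγ at 275 in Veh. At Cxcr4, a chemokine receptor, an intronic locus (chr1:128590762-128590973) had 67, 74 and 44, with PU.1 at 1108. At Cebpb, a locus between genes 52.1 kb away (chr2:167740882-167741083) had 63, 88 and 66, and there the nearest ATF3 peak was 53 bp off. This locus also held a FosL2 peak in C57Bl/6EiJ Veh, with a count of 26. Wnk2, a kinase gene, had 75, 59 and 54 in an intron (chr13:49100453-49100686) and no JunD peak in C57Bl/6EiJ KLA, Bex6 had 83, 52 and 47 (chr16:32190247-32190476) and Nemp1, a nuclear envelope gene, had 71, 73 and 74 at its promoter (chr10:127666872-127667233). A PU.1 Veh peak was present at 5 of the 6 and at 122 of all 193 such loci (63.2%, 56.2 to 69.7), near the 60.3% of all members. PPARγ was found at 131 (67.9%, 61.0 to 74.1), compared with 57.3% of all members and 58.4% of all resting loci.

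The 120 members with all 6 monomers after KLA had JunD Veh counts from 27 to 141, with a median of 39.0, and included Trim25 and Gramd1b. The 6 with the highest JunD KLA counts among them are given here. At Cxcl1, a neutrophil chemokine that TLR4 induces, a locus 15.0 kb upstream (chr5:90876099-90876313) had a JunD count of 34 in Veh, in the 15.6 percentile, and of 723 in KLA, in the 96.0 percentile, with ATF3 at 183, Fos at 147, FosL2 at 96, Jun at 52 and JunB at 50. No JunD peak was called there in Balb/cJ Veh or PPARgKO Veh. At Cdc42bpg, a kinase gene, an intronic locus 9.73 kb upstream of its TSS (chr19:6296613-6296835) had a JunD count of 28 in Veh, in the 1.97 percentile, and of 718 in KLA, in the 95.9 percentile. Ube2n, a ubiquitin-conjugating enzyme of TLR signalling, had 71 in Veh and 833 in KLA (chr10:95508855-95509088), Plek2 39 and 727 (chr12:78908138-78908362), Atp6v1g3 47 and 710 (chr1:138323036-138323331), and Arhgdib 32 and 696 (chr6:136938571-136938861). A TRE was present at 5 of these 6. They were ordered by the JunD KLA count, so its size there is part of how they were chosen, and counts were not scaled between lists.

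**Figure D5:**
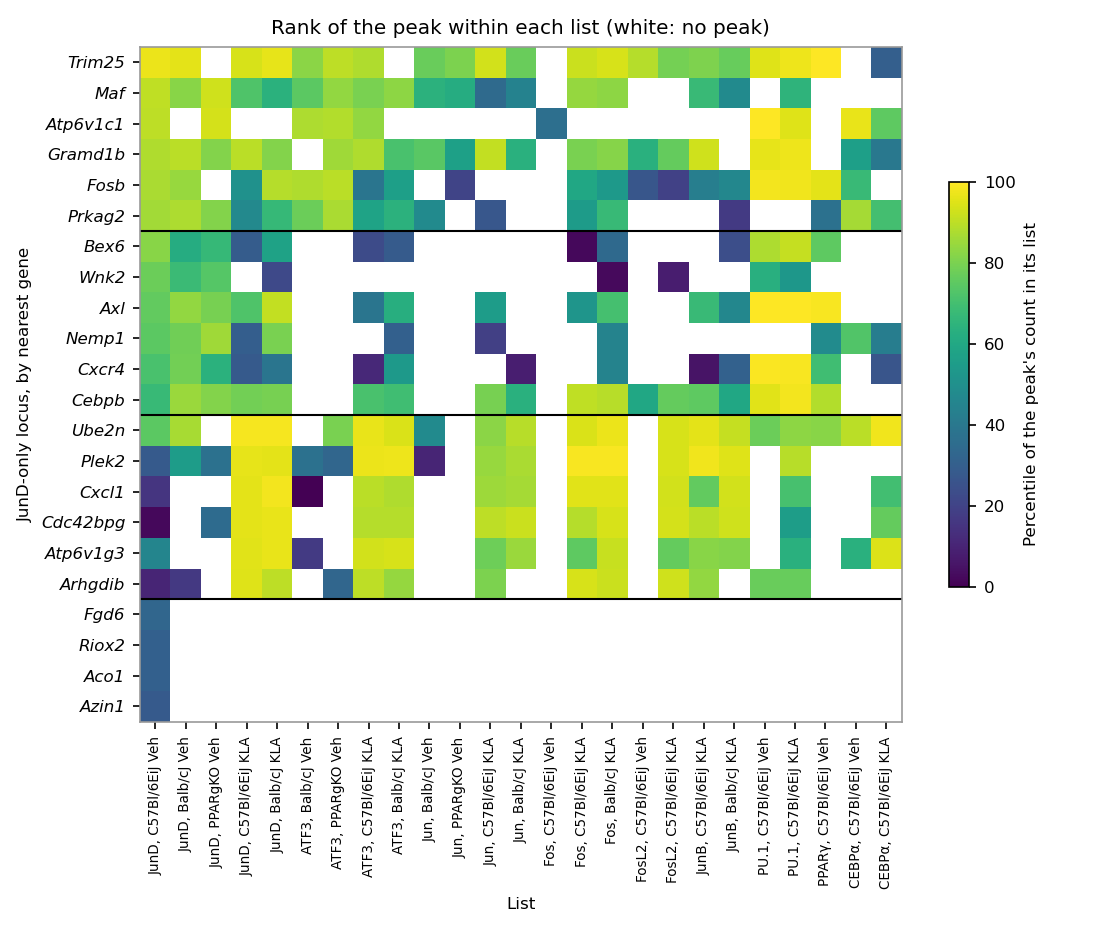
Percentile of the peak's count within its list (colour, 0 to 100) for 22 JunD-only loci (y axis, by nearest gene) in the JunD Veh list that defined them and 24 other lists (x axis), with white where there was no peak. From top to bottom the blocks are the highest JunD Veh counts, JunD alone again in Balb/cJ and PPARgKO Veh, all 6 monomers in KLA, and no peak in any other list; the Cdc42bpg peak stood in the 1.97 percentile of the JunD Veh list and the 95.9 percentile of the JunD KLA list.

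PPARγ without PU.1 was found at 665 members, and of the 4 with the highest JunD Veh counts Prkag2 came first. Dnah12 had a JunD Veh count of 77 with PPARγ at 27 (chr14:26764889-26765129, intron), a locus 66.5 kb upstream of Ctnnb1, the β-catenin gene, had 73 with PPARγ at 49 (chr9:120866806-120867060), and one 74.4 kb upstream of Tmem17 had 72 with PPARγ at 44 (chr11:22437572-22437811). JunD was found again in Balb/cJ Veh at all 4, with counts of 96, 43, 69 and 83.

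A peak in no other list was rare. The members overlapped a peak in a median of 6 of the 26 other lists that held peaks, with quartiles of 4 and 10 and a highest value of 21, and 45 (1.38%, 1.03 to 1.84) overlapped none, against 1.67% of all resting loci. The highest JunD Veh counts among the 45 were 41 in an intron of Fgd6 (chr10:94038601-94038811), 40 in a UTR of Riox2 (chr16:59471726-59472024), 40 in a UTR of Aco1, the iron regulatory protein IRP1 (chr4:40143152-40143609), and 39 between genes 45.4 kb from Azin1 (chr15:38473650-38473982). GC boxes were found in 8 of the 45 (17.8%, 9.29 to 31.3) and TREs in 5 (11.1%, 4.84 to 23.5), and 11 (24.4%) lay within 1 kb of a TSS.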

How the data were processed

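ChIP-seq peak lists were analysed for TGEMs in 30 conditions out of 34 samples. The other 4 samples were inputs without a list. Bowtie2 was used by the authors for alignment, with mm10 as reference for C57 and a strain genome, later shifted to mm10 positions, for Balb/cJ. Peaks came from HOMER, with input as control, and had to recur between replicates at an IDR under 0.05 (idr 2.0.3). The deposited lists give a tag count per peak, in whole numbers not scaled between lists, and an IDR score from 540 to 1000. How replicate counts were combined is not given in the sources used here. The sums of counts ran from 203 to 13809143 per list. An empty list (Fos Veh, Balb/cJ) gave no value, and the sequencing depth behind each list is unknown.

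Peaks were merged at an overlap of 1 bp or more. Gene positions came from the GENCODE vM21 annotation of GRCm38 and sequences from RefSeq GRCm38.p6, and 14 motifs were searched in the central 200 bp on both strands (Python 3.11.15, numpy 2.4.6, pandas 2.3.3, scipy 1.17.1, matplotlib 3.10.9). With 1 list per condition no p-value was computed. The percentile of a peak is the share of peaks in its list with the same or a smaller count. The members, gene lists, motifs and tests were chosen with earlier results of these data known. Named loci were the 6 with the highest JunD Veh count, the 6 highest with JunD alone again in both other Veh settings, the 6 with the highest JunD KLA count among those with all 6 monomers, the 4 highest with no peak elsewhere, the 4 highest with PPARγ and no PU.1, and up to 4 genes of each of 14 lists by JunD Veh count. The steps were tested on simulated data: 100% of 735 overlaps and 100% of 500 planted motifs were recovered, and 95.3% of 2000 Newcombe intervals held the true difference.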

Additional observations from a re-analysis of the deposited data

How the results depend on the processing

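Of 22 shares, 12 moved past their counting interval when peak centres within 100 bp defined shared loci (3678 JunD-only loci), 16 with the strongest 50% of each list (1406 loci) and 2 without members that had an ATF3 or Jun Veh peak within 1 kb (2633 loci left). Beyond 1 kb from a TSS (2071 loci), 13 of 17 moved, motif and TSS shares not being recomputed there. The causes were not tested. Centres within 100 bp gave 40.8% for JunD in KLA, 37.8% for ATF3 in KLA, 17.3% for Jun in KLA, 24.7% for Fos in KLA, 10.5% for FosL2 in KLA, 44.2% for JunD in Balb/cJ Veh, 15.8% for ATF3 in Balb/cJ Veh, 32.5% for JunD in PPARgKO Veh, 37.4% for ATF3 in PPARgKO Veh, 52.4% for PU.1 in Veh, 51.7% for PPARγ in Veh and 29.3% for JunD alone again in Balb/cJ Veh. The strongest 50% gave 41.9% for JunD in KLA, 15.4% for Jun in KLA, 28.7% for Fos in KLA, 68.5% for JunD in Balb/cJ Veh, 13.3% for ATF3 in Balb/cJ Veh, 7.68% for Jun in Balb/cJ Veh, 47.7% for JunD in PPARgKO Veh, 1.49% for Jun in PPARgKO Veh, 54.7% for PU.1 in Veh, 14.5% for CEBPα in Veh, 52.8% for JunD alone again in Balb/cJ Veh, 24.4% for JunD alone again in PPARgKO Veh, 22.4% for loci at a TSS, 23.9% for the TRE, 7.04% for the GC box and 27.7% for the PU.1 motif. Loci beyond 1 kb gave 47.7% for JunD in KLA, 49.3% for ATF3 in KLA, 20.8% for Jun in KLA, 33.7% for Fos in KLA, 14.5% for FosL2 in KLA, 16.4% for JunB in KLA, 20.2% for ATF3 in Balb/cJ Veh, 11.5% for Jun in Balb/cJ Veh, 33.4% for JunD in PPARgKO Veh, 64.3% for PU.1 in Veh, 13.8% for CEBPα in Veh, 49.2% for PPARγ in Veh and 15.0% for JunD alone again in PPARgKO Veh. No ATF3 or Jun peak within 1 kb gave 44.1% for ATF3 in PPARgKO Veh and 59.8% for PPARγ in Veh. The central 100 bp gave 11.7% for the TRE, 5.87% for the GC box, 14.8% for the PU.1 motif and 2.55% for the E-box. At a TSS lay 32.2% within 500 bp and 40.3% with the TSSs of all annotated genes. Against ATF3-and-JunD loci the direction turned for PU.1 in Veh with the strongest 50% (54.7% and 48.0%) and beyond 1 kb (64.3% and 63.7%), and with the strongest 50% for PPARγ in Veh (58.9% and 58.3%) and the PU.1 motif (27.7% and 25.0%). No paired analysis was possible because each condition has 1 list that combines its replicates.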
